A study of Mus musculus with 33 samples.

Results

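The genes described here are 6 of the 32285 genes counted in a mouse single-cell RNA-seq series: Socs1, Socs3, Cish, Nfil3, Bcl3 and Stat3. They encode inhibitors and transcriptional regulators that act in or downstream of cytokine signalling, and were chosen by lower values in tagged phagocytes, so the contrast of tagged with untagged phagocytes is described below without a test. SAMENT labelling attaches biotin to cells in situ. Lungs, livers, brains and leg bones were taken after an overnight labelling of about 10 hr, dissociated with collagenase at 37 °C, and sorted into biotin positive (tagged) and biotin negative (untagged) cells. The intracardiac-injection experiment had 8 groups, bone, brain, liver and lung in each sort, with 4 samples in every group. A second experiment, named iia-injection in the labels, covered bone alone as 1 pooled library of 12 hashtagged samples, 6 tagged and 6 untagged. Every group was labelled and sorted in this way, and no group without an injection was analysed here. The labels used here name neither the strain and age of the mice nor the injected cells, and they do not say that replicates are separate animals, so p-values measure the spread between these samples, which may be technical.

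SOCS proteins are induced by cytokines and shut the same signal off: a receptor activates a JAK kinase, the kinase activates a STAT transcription factor, and the STAT switches on the SOCS gene whose product blocks the receptor or the kinase. Socs3 restrains receptors that use gp130 and the receptor for granulocyte colony-stimulating factor, which act mainly through Stat3. Socs1 restrains interferon and common gamma chain signalling, and Cish, which encodes CIS, is a target of Stat5. Nfil3 is a basic leucine zipper repressor induced by cytokines and needed for innate lymphoid cells, and Bcl3 is an atypical IkB protein that binds the NF-kB subunits p50 and p52 and tunes transcription in the nucleus. In macrophages and neutrophils these genes are known as early responders to interleukins and microbial products.

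On GRCm38, the build that the submitters' processing notes call mm10, the GENCODE vM21 annotation places Socs3 (ENSMUSG00000053113) at chr11:117966079-117970047 on the minus strand and Nfil3 (ENSMUSG00000056749) at chr13:52967209-52981073 on the minus strand. Bcl3 (ENSMUSG00000053175) lies at chr7:19808462-19822770 on the minus strand and Cish (ENSMUSG00000032578) at chr9:107296026-107302784 on the plus strand. Socs1 (ENSMUSG00000038037) lies at chr16:10782240-10785536 and Stat3 (ENSMUSG00000004040) at chr11:100885098-100939540, both on the minus strand. The promoters of the 3 genes that the phagocyte comparison turns on, and of Cish, which ran the other way in lung, are shown because the regulators that these pathways act through bind there. Each is the RefSeq GRCm38.p6 stretch from 250 bases before the start to 20 bases after it, read on the gene's strand. RefSeq starts differ from the outer ends of the GENCODE genes, and the windows of Socs3 and Cish lie wholly inside the GENCODE spans given above. Capitals mark a match to TTCNNNGAA, the palindromic STAT motif, or to the NF-kB consensus of 10 bases. The stretches are chr11:117969347-117969616 for Socs3, chr9:107296409-107296678 for Cish, chr13:52981020-52981289 for Nfil3 and chr7:19822736-19823005 for Bcl3.
Socs3: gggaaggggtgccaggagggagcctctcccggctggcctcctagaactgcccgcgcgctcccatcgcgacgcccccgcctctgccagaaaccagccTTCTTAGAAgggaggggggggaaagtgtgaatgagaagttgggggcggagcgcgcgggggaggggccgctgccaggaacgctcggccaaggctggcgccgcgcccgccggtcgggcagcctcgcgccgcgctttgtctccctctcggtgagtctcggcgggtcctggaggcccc
Cish: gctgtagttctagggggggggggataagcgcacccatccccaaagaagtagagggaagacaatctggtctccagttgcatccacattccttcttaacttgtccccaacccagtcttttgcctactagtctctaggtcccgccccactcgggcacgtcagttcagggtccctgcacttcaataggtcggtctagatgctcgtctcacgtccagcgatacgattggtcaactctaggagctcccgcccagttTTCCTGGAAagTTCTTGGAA
Nfil3: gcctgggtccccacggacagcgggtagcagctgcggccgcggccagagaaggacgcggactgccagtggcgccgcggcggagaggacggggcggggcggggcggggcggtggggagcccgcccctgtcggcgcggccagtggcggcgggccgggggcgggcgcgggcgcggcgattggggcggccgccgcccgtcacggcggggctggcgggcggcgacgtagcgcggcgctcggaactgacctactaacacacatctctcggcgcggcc
Bcl3: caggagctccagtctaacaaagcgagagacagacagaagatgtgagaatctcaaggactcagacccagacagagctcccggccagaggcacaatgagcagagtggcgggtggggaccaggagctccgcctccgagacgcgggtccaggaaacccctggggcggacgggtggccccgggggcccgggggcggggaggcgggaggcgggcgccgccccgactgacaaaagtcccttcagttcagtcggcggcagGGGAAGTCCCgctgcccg
The Socs3 promoter held 1 STAT match, TTCTTAGAA at chr11:117969512-117969520. The Cish promoter held 2, TTCCTGGAA at chr9:107296659-107296667 and TTCTTGGAA at chr9:107296670-107296678, and the Bcl3 promoter held 1 NF-kB match, GGGAAGTCCC at chr7:19822744-19822753. No match to these motifs, to the STAT motif with a spacer of 4 bases or to the letters TTACGTAA and TTATGTAA, which Nfil3 and the related PAR factors bind, was present in the windows of Nfil3, Socs1 and Stat3. Both strands were searched over 300 bases a gene. Of 32851 promoters in the table, 8.30% held TTCNNNGAA, 6.95% the form with the longer spacer, 8.46% held the NF-kB consensus and 1.06% held TTACGTAA or TTATGTAA. A match is a description of letters, not a measured binding site.

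Libraries differed in size. Of 57065 intracardiac barcodes 55366 were kept, 94 to 3505 per sample with a median of 2606 to 11313.5 UMIs (unique molecular identifiers, 1 per captured transcript) per cell. In the iia experiment 22362 cells were kept, 249 to 3480 per hashtagged sample. Levels are given as CPM, the UMIs of a gene per 1000000 UMIs summed over the cells of 1 class in 1 sample, with at least 10 cells. Intracardiac libraries with the same replicate number shared no cell barcode in 112 pairs, and libraries with different numbers shared 341 in 384 pairs. Cell classes were rebuilt by clustering, so a name stands for resemblance to marker genes. Clusters that met no name held 23.8% of intracardiac cells and are given by number.

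In the phagocytes, which join monocyte, macrophage, alveolar macrophage and microglia clusters, Socs3 was lower in tagged than in untagged cells of lung and liver, higher in the mean of brain, and about level in bone. In lung, Socs3 stood at 232, 223, 167 and 194 CPM in the 4 untagged samples and at 34.2, 32.8, 28.9 and 104 CPM in the 4 tagged ones. The tagged lung samples were all below the untagged ones, with 1 of them (replicate 4) far above the others. In liver the untagged values were 165, 272, 132 and 239 CPM and the tagged ones 110.0, 64.3 and 82.7 CPM, where 1 tagged sample had too few phagocytes to be used. Again the groups did not overlap. In brain the untagged samples gave 132, 181, 113 and 99.5 CPM and the tagged ones 58.0, 296, 364 and 626 CPM. The brain groups overlapped through tagged replicate 1, the lowest of all 8, while the other tagged samples were the highest. In bone, with 93.6, 130.1, 111 and 88.7 CPM untagged and 126, 129, 101 and 106 CPM tagged, the values ran together. Of the genes that passed the filter on low counts, 11.4% in lung and 5.79% in liver had groups that did not overlap with the tagged samples lower. The difference in log2 CPM, scaled by TMM, was -2.43 (SE 0.39) for lung, -1.48 (SE 0.34) for liver, 1.07 (SE 0.53) for brain and 0.03 (SE 0.19) for bone.

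Nfil3 was lower in tagged phagocytes of brain, liver and lung without overlap. The untagged lung samples held 238, 295, 298 and 273 CPM of Nfil3 and the tagged ones 129.8, 203, 156 and 175 CPM. In brain it stood at 151, 342, 280.0 and 201 CPM untagged and 43.0, 88.5, 83.8 and 19.6 CPM tagged, and in liver at 88.8, 302, 215 and 173 and 71.1, 64.4 and 67.2 CPM. The 3 tagged liver samples lay within a narrow band, whereas the untagged ones spanned a wide range whose lowest value was still above them. Bone was the exception, with 92.9, 161, 106 and 104 CPM untagged against 109, 119.9, 74.9 and 87.0 CPM tagged, and these groups overlapped. The log2 differences of Nfil3 were -1.07 (SE 0.15) in lung, -2.33 (SE 0.47) in brain, -1.79 (SE 0.39) in liver and -0.33 (SE 0.23) in bone. In brain 12.1% of the genes that passed the filter had tagged samples below all untagged ones.

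Bcl3, the nuclear partner of p50, gave 118, 81.9, 61.1 and 36.0 CPM in untagged and 18.6, 15.6, 18.2 and 12.4 CPM in tagged lung phagocytes. Its untagged lung values were widely spread and its tagged ones hardly, and the groups did not overlap. In brain Bcl3 stood at 23.0, 39.8, 37.4 and 34.2 CPM untagged and 9.67, 21.7, 19.5 and 7.85 CPM tagged, also apart. In liver (38.9 ± 9.65 (SD, n = 4) CPM untagged, 26.3 ± 6.94 (SD, n = 3) tagged) and bone (41.0 ± 5.22 (SD, n = 4) untagged, 48.2 ± 11.9 (SD, n = 4) tagged) the groups overlapped. The log2 differences were -2.49 (SE 0.33) in lung, -1.47 (SE 0.36) in brain, -0.76 (SE 0.28) in liver and 0.16 (SE 0.20) in bone.

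Cish ran the other way in lung, at 10.9, 8.10, 4.65 and 3.85 CPM untagged and 34.1, 24.6, 22.4 and 13.9 CPM tagged, on 443, 466, 80 and 18 UMIs in the tagged samples. Tagged lung phagocytes were all above the untagged ones, as were 37.1% of the genes that passed the filter in lung. The log2 difference of Cish in lung was 1.55 (SE 0.35). In the other tissues Cish stayed at or below 15.6 CPM, and Socs1, the interferon feedback inhibitor, stayed at or below 7.75 CPM in every intracardiac phagocyte sample. Stat3, the factor upstream of Socs3, gave 137 ± 28.7 (SD, n = 4) CPM tagged against 139 ± 26.7 (SD, n = 4) untagged in lung, 121 ± 25.6 against 114 ± 17.3 in liver, 118 ± 28.3 against 129.8 ± 21.0 in brain and 143 ± 27.5 against 129 ± 17.7 in bone. Its groups overlapped in all 4 tissues. Leaving out the TMM scaling moved the median gene by 0.34 in lung, 0.30 in brain, 0.27 in liver and 0.14 in bone on the log2 scale toward the tagged samples, so that a small difference such as that of Stat3 changes with the scaling. Of the 6 genes 4 passed the filter in bone and brain and 5 in liver and lung.

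In the iia experiment the phagocytes of bone gave another picture, but the clusters joined as phagocytes were not alike in the 2 experiments. Iia cluster 0, led by Arg1, Pf4 and Hmox1, is among them. Intracardiac cluster 16, led by Arg1, Pf4 and Spp1, met no name and is not. Socs3 had a lowest, median and highest value of 20.9, 34.4 and 57.5 CPM in the 6 untagged samples and of 35.3, 61.7 and 99.3 CPM in the 6 tagged ones. The groups overlapped, and the log2 difference was 1.04 (SE 0.25). Nfil3 ran downward, from 52.9, 97.9 and 117 CPM untagged to 14.1, 75.4 and 86.0 CPM tagged (lowest, median and highest). Stat3 was lower in the mean of the tagged samples, at 172 ± 32.1 (SD, n = 6) CPM against 247 ± 24.1 (SD, n = 6), with a log2 difference of -0.47 (SE 0.12). Bcl3 was level, at 52.8 ± 18.9 against 51.6 ± 6.07 CPM. Socs1 was at 13.6 ± 8.10 CPM tagged and 5.30 ± 3.99 untagged, on few UMIs. None of the 6 genes had groups that did not overlap. Over all genes 6.06% had tagged samples below and 5.25% above all untagged ones.

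**Figure D1:**
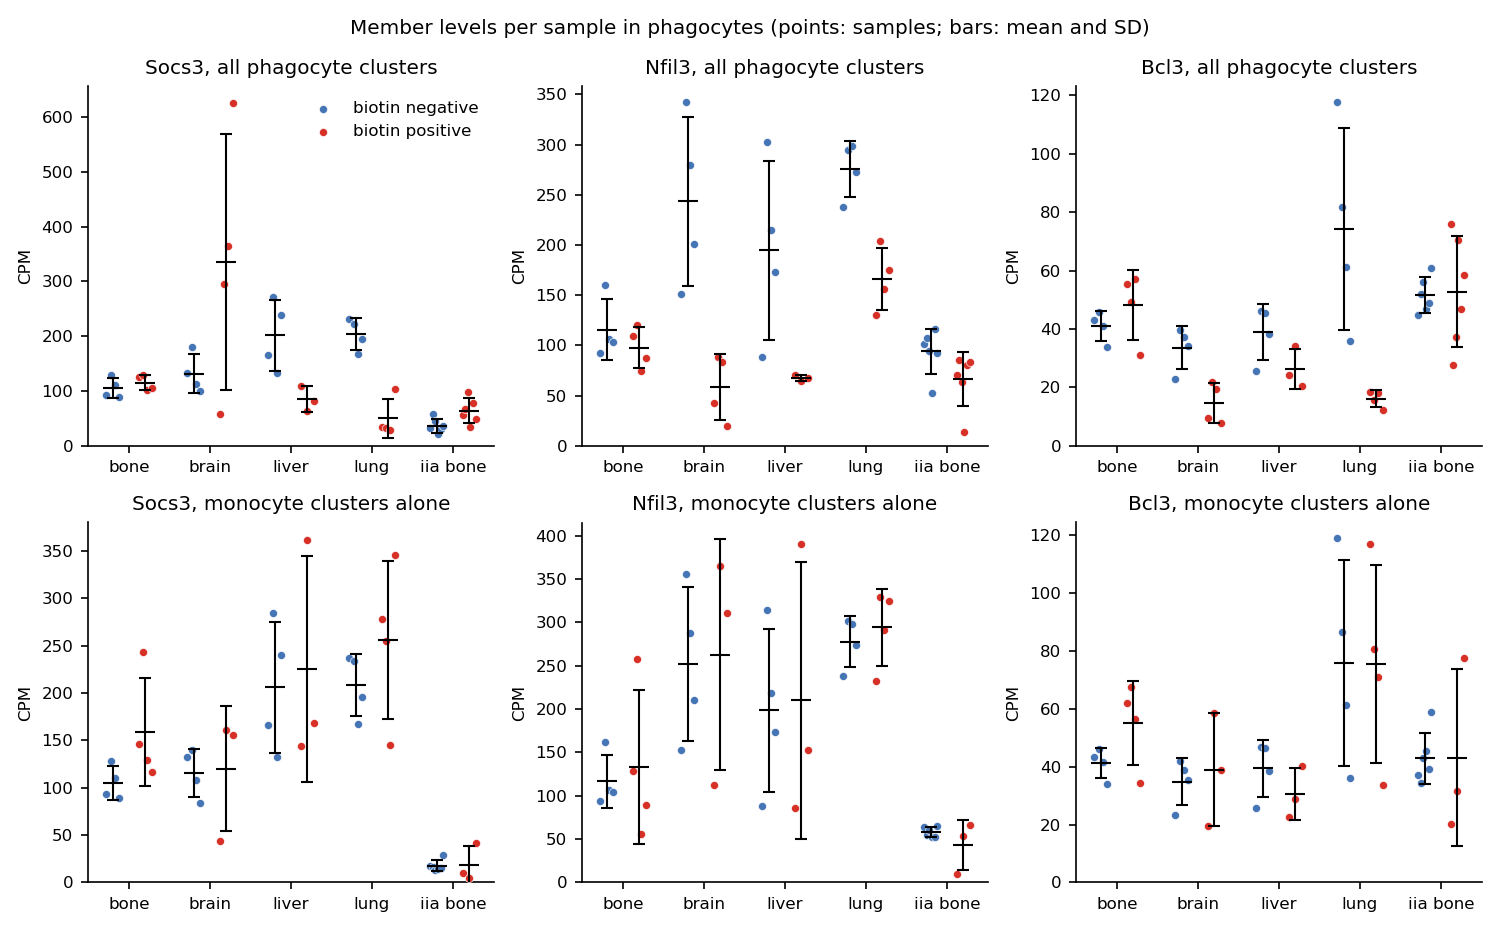
Levels of Socs3, Nfil3 and Bcl3 in CPM on linear axes by tissue and sort, with all phagocyte clusters in the upper row and monocyte clusters alone in the lower row. Each point is 1 sample, blue untagged and red tagged, and the bar is the mean with its SD. In lung the tagged points of all 3 genes lie below the untagged ones in the upper row, and in the lower row the groups overlap.

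The sorts held different phagocytes. Monocytes (clusters 1, 13 and 18) made up 86.2% to 99.7% of phagocytes in each untagged intracardiac sample. In the tagged samples that share was lower but uneven: it was 0.97% to 31.5% in lung, 1.84% to 11.3% in brain, 9.51% to 69.0% in bone, and 67.7%, 1.29% and 26.6% in the 3 liver samples with more than 1 phagocyte. In tagged lung 64.4% to 94.99% of phagocytes were in alveolar macrophage cluster 31. In tagged liver 22.9%, 96.1% and 65.1% were in cluster 33, led by the Kupffer cell genes Cd5l, Clec4f and Vsig4, and the share over pooled cells was 74.3%, or 33.0% without replicate 2. In tagged brain macrophage cluster 36, led by Ccl12, Ptgds and Lyve1, held 81.8% and 92.4% of phagocytes in replicates 1 and 2 but 19.8% and 17.8% in replicates 3 and 4, where microglia cluster 38 held 66.0% and 79.8%. Over pooled brain cells cluster 36 had 61.9% and microglia 33.0%, and without replicate 2 the order turned, at 38.3% and 55.1%. In tagged bone macrophage cluster 24, led by Vcam1, Ccr3 and Spic, held 38.9%, 87.8%, 50.8% and 31.0%, which pooled to 62.8%, or to 40.1% without replicate 2. The 18 monocyte markers summed to a median of 2364 CPM in tagged and 13381 in untagged lung phagocytes, and the 24 macrophage markers to 46089 and 5718 CPM in brain. A list of 10 abundant neutrophil transcripts summed to a median of 9355 CPM in tagged and 17234 in untagged lung phagocytes, and to 12022 and 51150 in brain. A list of 22 immediate early genes, which respond to dissociation, stood at 11015 CPM tagged and 13892 untagged in lung but at 37791 and 15246 in brain, in the direction of Socs3. The 14 erythroid genes summed to a median of 831 CPM in tagged and 6.90 in untagged liver phagocytes. Tagged phagocytes of brain, with a median of 3407 to 5197 UMIs per cell and sample, were also shallower than untagged ones, with 6277 to 9609, while in lung both sorts lay between 6418 and 9211. In bone the tagged range was 1562 to 4309.5 and the untagged one 6519.5 to 9083. The part of cluster makeup, these lists and depth in the differences of Socs3, Nfil3 and Bcl3 was not tested.

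In the monocyte clusters alone none of the 4 members that passed the filter (Socs3, Nfil3, Bcl3 and Stat3) had groups that did not overlap in any of the 5 comparisons, where 1.56% to 8.07% of genes had tagged samples below all untagged ones. Socs1, which did not pass, was at 0 in the 3 tagged samples of brain and of iia bone, which hold 11 to 34 cells each. Socs3 in lung monocytes stood at 236, 234, 167 and 195 CPM untagged and 278, 255, 145 and 345 CPM tagged, so the tagged values covered the untagged range. Nfil3 in lung monocytes was 294 ± 44.4 (SD, n = 4) CPM tagged against 278 ± 29.1 (SD, n = 4) untagged, and Bcl3 was 75.5 ± 34.2 against 75.7 ± 35.4 CPM. The log2 differences in lung monocytes were 0.24 (SE 0.23) for Socs3, 0.02 (SE 0.15) for Nfil3 and -0.01 (SE 0.39) for Bcl3. In liver monocytes Nfil3 was at 86.4, 391 and 152 CPM in the 3 tagged samples, the highest of them with 11 cells, and at 88.3, 314, 219 and 174 CPM in the untagged ones. In brain monocytes it was at 112, 365 and 311 CPM in 3 tagged and 153, 356, 288 and 210.5 CPM in 4 untagged samples. Both groups were widely spread in both tissues. In bone monocytes Socs3 averaged 159 ± 57.3 (SD, n = 4) CPM tagged and 105 ± 17.9 (SD, n = 4) untagged, with overlap.

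Resident macrophages differed from one another in these genes. Tagged alveolar macrophages of cluster 31 held 16.6, 30.7, 6.79 and 2.45 CPM of Socs3, on 185, 543, 19 and 2 UMIs, but 128, 205, 133 and 121 CPM of Nfil3. Every tagged sample of the alveolar cluster was thus below every untagged sample of monocyte clusters 13 and 18 in Socs3, though not below all of cluster 1, while its Nfil3 lay inside the monocyte range. Tagged microglia of cluster 38 were the reverse, with 165, 343, 459 and 679.9 CPM of Socs3 and 34.8, 59.6, 40.3 and 13.4 CPM of Nfil3. The microglial samples rested on 18, 25, 70 and 304 cells, and the sample with the most cells was the highest in Socs3 and the lowest in Nfil3. Brain macrophages of cluster 36 ranged from 42.7 to 419 CPM of Socs3 over 4 tagged samples and from 12.8 to 81.3 CPM of Nfil3. The Kupffer-like cluster 33 of tagged liver was low in both, at 33.2, 61.3 and 43.4 CPM of Socs3 and 14.8, 59.6 and 23.7 CPM of Nfil3. Bone macrophages of cluster 24 ranged from 0 to 101 CPM of Socs3 and 34.4 to 60.6 CPM of Bcl3 over 3 samples of 122, 323 and 31 cells. Untagged samples of monocyte cluster 18, for comparison, ran from 75.3 to 361 CPM of Socs3, 129 to 355 CPM of Nfil3 and 34.8 to 124 CPM of Bcl3. Cish in the tagged alveolar cluster was 35.6, 25.3, 25.7 and 18.4 CPM. Untagged samples of the same macrophage clusters were few and small. Untagged lung replicate 2, with 21 cells of cluster 31, held 118 CPM of Socs3 and 231 CPM of Nfil3. Both were above all tagged lung samples of that cluster. Untagged liver replicates 2 and 3, with 18 and 27 cells of cluster 33, held 54.5 and 126 CPM of Socs3. Their Nfil3 was at 21.8 and 107 CPM. The part of the sort in the levels of these clusters was not tested. These contrasts of clusters are descriptions, because the clusters were built from 2000 variable genes of these same cells.

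**Figure D2:**
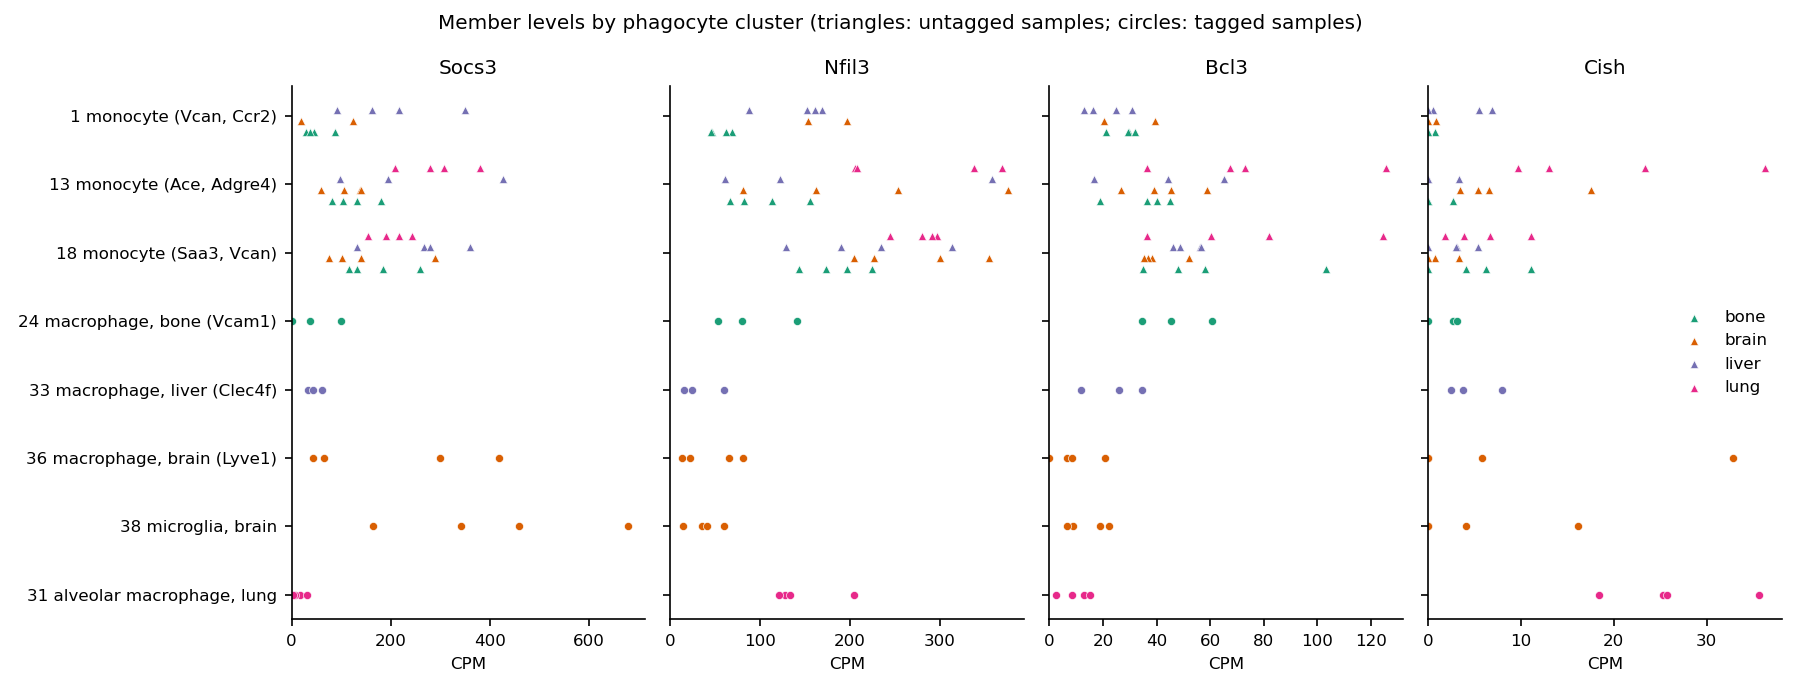
Levels of Socs3, Nfil3, Bcl3 and Cish by phagocyte cluster on linear CPM axes. Triangles are untagged samples of monocyte clusters 1, 13 and 18 in 4 tissues, and circles are tagged samples of macrophage clusters 24, 33 and 36, microglia cluster 38 and alveolar macrophage cluster 31. The alveolar points are low in Socs3 and Bcl3 but within the monocyte range in Nfil3, and the microglial points are high in Socs3 and low in Nfil3.

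Where both sorts held enough phagocytes outside the monocyte clusters, the comparison could be described without monocytes. In bone of the iia experiment 78.3% of the pooled tagged phagocytes, and 13.8% to 94.1% by sample, were macrophages of cluster 0, led by Arg1, Pf4 and Hmox1. Stat3 stood there at 350.3, 368, 421, 372, 289.7 and 334 CPM in untagged and 119.5, 168, 161, 179, 179 and 171 CPM in tagged macrophages of all macrophage clusters. These groups did not overlap, and over all genes 4.14% had tagged samples below all untagged ones. The log2 difference of Stat3 was -1.12 (SE 0.15). Nfil3 in the same cells was 259, 229, 236, 66.4, 372 and 288 CPM untagged and 77.4, 86.1, 65.4, 8.97, 90.4 and 102 CPM tagged. All tagged values were low, and the groups overlapped only through untagged replicate 4. Its log2 difference was -1.70 (SE 0.35), and those of Bcl3 and Socs3 were -0.89 (SE 0.25) and -0.62 (SE 0.23). Socs3 thus ran in the opposite direction in macrophages alone (74.3 ± 24.6 (SD, n = 6) CPM tagged, 124 ± 38.1 (SD, n = 6) untagged) and in all phagocytes of these samples. In brain the 4 tagged samples averaged 352 ± 242 (SD, n = 4) CPM of Socs3 without monocytes and 3 untagged ones 468 ± 275 (SD, n = 3), a log2 difference of -0.40 (SE 0.66). Untagged brain replicates 2, 3 and 4 had 21, 12 and 17 cells of cluster 36, at 837, 346 and 127 CPM of Socs3. Of the untagged samples replicate 4 alone had enough microglia of cluster 38, with 19 cells at 550 CPM. The part of this makeup in the brain difference was not tested. In liver, with 2 untagged samples, the log2 difference of Socs3 was -0.96 (SE 0.49). Lung had 1 untagged sample with enough such cells, so no spread was available there.

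Over all intracardiac cell classes, 78 groups of class or unnamed cluster, tissue and sort had at least 3 samples. Socs3 was highest in unnamed cluster 20, led by Il1b, Ccrl2, Gadd45b and Ptgs2 and carrying 4 neutrophil markers, at 718 ± 420.4 (SD, n = 4) CPM in untagged liver, 673 ± 402 in tagged liver, 504 ± 142 in untagged brain and 502 ± 153 in untagged bone. Endothelial cells of liver held 271 to 309 CPM, and among groups with fewer than 3 samples endothelial cluster 35 gave 1280 and 680 CPM in 2 tagged lung samples, on 1558 and 41 UMIs, and 67.1 and 178 CPM in 2 tagged brain samples. Microglia of tagged brain held 412 CPM, T cells 42.0 to 99.7, B cells 31.9 to 87.4, alveolar macrophages of tagged lung 14.5 and plasma cells 2.76. Granulocyte precursors of untagged bone were near the bottom at 5.03 ± 1.71. No group was apart from the next one in the order of Socs3, and since groups sorted by their means have neighbours close in level, such overlap says little about the order. The same held for Nfil3, Bcl3 and Socs1, with 0 of 77 neighbouring pairs apart, and for Cish and Stat3 1 of 77 pairs was apart.

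Nfil3 peaked in unnamed cluster 19 of untagged lung, led by Rsad2, Cxcl3, Ccl3 and Il1rn, at 414 ± 181 CPM, followed by cluster 20 of untagged brain at 321 ± 67.9, cluster 19 of tagged lung at 317 ± 72.4 and monocytes of tagged lung at 294 ± 44.4. Macrophages held 33.0 to 89.6 CPM, microglia 37.0 and plasma cells 3.47. Bcl3 was highest in cluster 20, at 113 ± 80.9 (SD, n = 3) CPM in tagged brain and 105 ± 23.3 (SD, n = 4) in untagged liver. The brain mean rests on replicate 3, with 206 CPM on 8 UMIs of 13 cells, and was 66.9 without it, below that of liver. Bcl3 stood at 98.0 ± 42.1 in neutrophils of tagged lung, and was at 9.64 CPM in alveolar macrophages, 14.1 in microglia and 3.55 in natural killer cells of untagged brain. Stat3 also peaked in cluster 20, at 328 ± 122 CPM in tagged liver, and was lowest in plasma cells at 30.6 ± 4.68.

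Socs1 and Cish had another order. Socs1 was highest in unnamed cluster 30, led by Calca, Il1rl1, Gata3, Csf2 and Areg, genes known from group 2 innate lymphoid cells, at 111 ± 40.6 CPM in untagged brain and 100.2 ± 104 (SD, n = 3) in untagged lung, which was 40.4 without replicate 4, then in natural killer cells of untagged brain at 86.2 ± 30.5 and T cells of untagged lung at 80.9 ± 32.1. Cish showed the same leading cluster, at 292 ± 87.0 CPM in untagged brain and 251 ± 33.4 in untagged lung, followed by T cells of tagged brain at 142 ± 57.7. Outside lymphoid classes Cish stood at 65.6 ± 29.4 CPM in cluster 19 of untagged lung, above T cells of untagged bone at 30.8 ± 28.8, and at 198 and 199 CPM in 2 tagged lung samples of endothelial cluster 35. Cluster 30 of untagged lung was the 1 group of Cish that stood apart from the next. In the iia experiment T cells led both genes, at 60.2 ± 22.2 CPM of Socs1 and 56.1 ± 12.7 of Cish. Unnamed cluster 5, led by Acod1, Cxcl2 and Il1b, was there the highest group of Socs3 (126 ± 103), Bcl3 (119 ± 41.9) and Stat3 (470 ± 103), in the tagged sort, and of Nfil3 (251 ± 61.7) in the untagged sort.

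**Figure D3:**
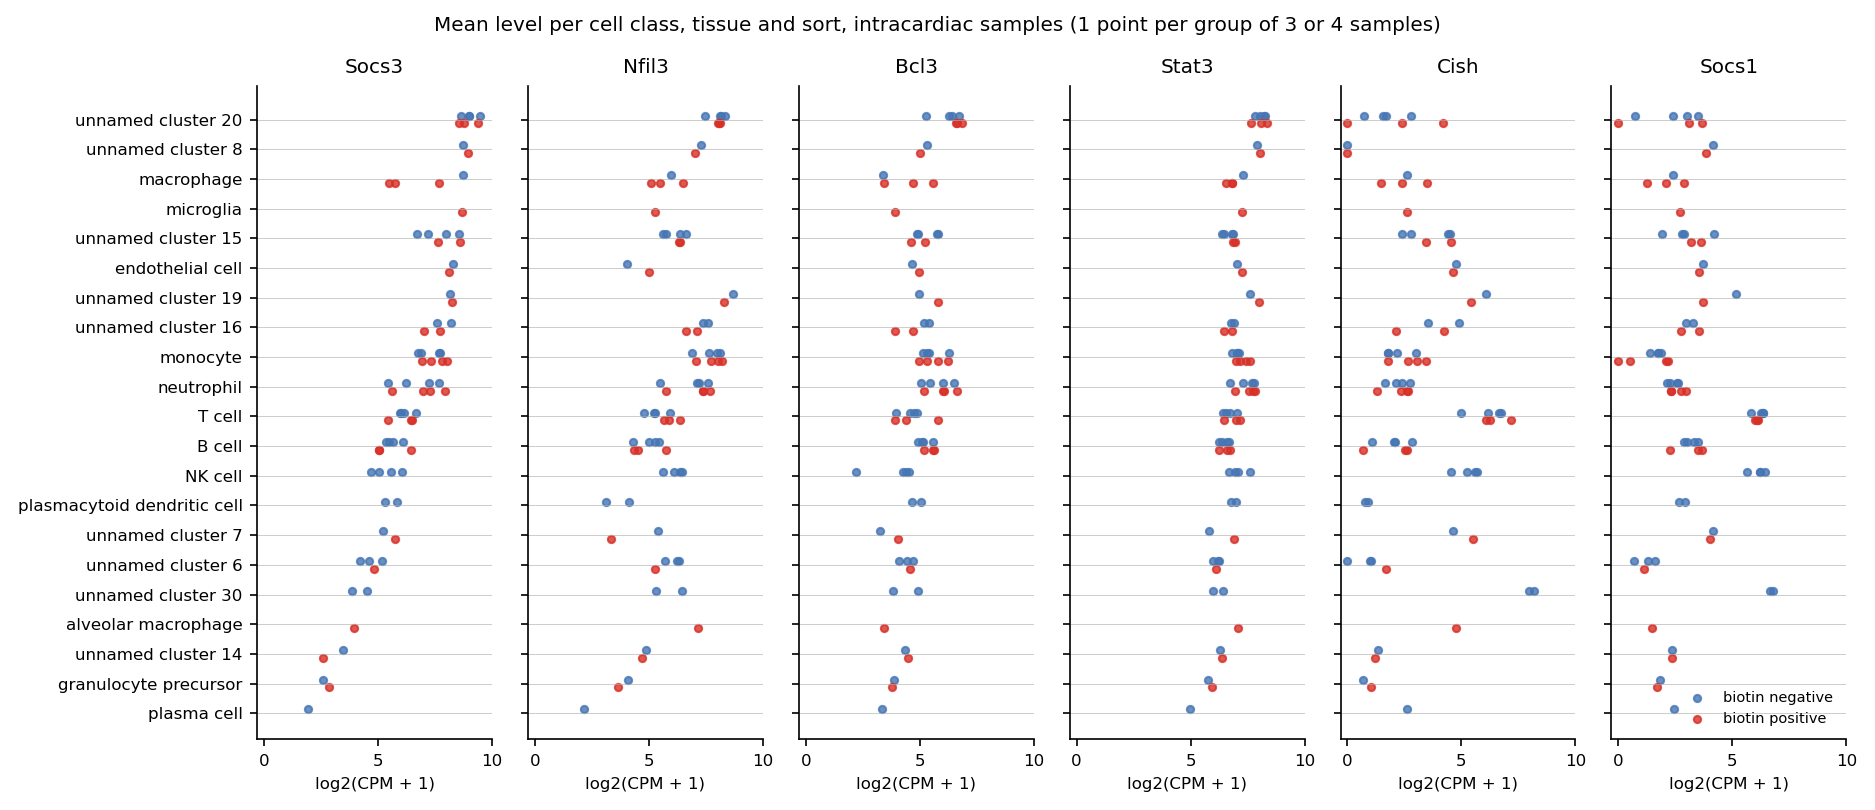
Mean level of each of the 6 genes as log2(CPM + 1) by cell class, tissue and sort in the intracardiac experiment, with 1 point per group of 3 or 4 samples. Socs1 and Cish are high in T cells, natural killer cells and unnamed cluster 30, Cish is also high in unnamed cluster 19, and Socs3, Nfil3, Bcl3 and Stat3 are spread over neutrophils, monocytes and macrophages.

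Across the 47 named class groups, Pearson correlation of mean log2(CPM + 1) gave the genes with the most similar pattern among 10634. Points share libraries and the clustering, so the correlations are descriptions. Socs3 was most like Map3k3 and Ssh2 (r = 0.80 each), then Dleu2, Klf3 and Map3k8. Nfil3 was most like Pim1 (0.85), a kinase gene that STAT factors induce, then Actg1, Rap1b, Cdc42 and Metrnl. Bcl3 was closest to Gm14548 (0.81), Tarm1, Mmp8, Trem1 and Fbxl5, several of them granulocyte genes. Stat3 was closest to Cmip (0.84), Picalm, Klf3, Litaf and Ccnl1. Socs1 followed the T cell gene Lck (0.95), with Cd247, Gm2682 and Cd96 among the next, and Cish followed Tox (0.89), with Prkcq, Zap70 and Abcb1a among the next. Among the members, r was 0.79 for Socs1 with Cish, 0.71 for Socs3 with Stat3, 0.63 for Nfil3 with Stat3, 0.48 for Socs3 with Nfil3, 0.37 for Socs3 with Bcl3 and -0.33 for Cish with Bcl3.

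In neutrophils, which the choice of the genes did not use, tagged and untagged cells were compared in each tissue with edgeR's quasi-likelihood test and Benjamini-Hochberg adjustment over all genes. Neutrophil Socs3 stood at 189, 267, 135 and 233 CPM in untagged liver and 237, 196, 195 and 358 CPM in tagged liver. The liver groups overlapped, and so did those of the other tissues: 111, 126, 92.8 and 272 CPM untagged and 139, 114, 89.0 and 267 tagged in lung, and 31.2, 38.1, 38.1 and 60.3 and 26.1, 46.2, 45.7 and 74.1 CPM in bone. No member and no other gene passed in bone (7601 genes tested), brain (4807), liver (4448) or lung (4930), 0.0% each. At an unadjusted p under 0.05 there were 69, 24, 27 and 42 genes, and DESeq2 called 0, 0, 0 and 1. All 6 members passed the filter in bone and 4 (Socs3, Nfil3, Bcl3 and Stat3) in the other tissues. Nor did any gene pass in the test of whether the difference in 1 tissue departed from that in the other 3 (7117 genes, 49 to 106 at an unadjusted p under 0.05, DESeq2 0).

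Same-numbered samples deviated together in the intracardiac neutrophils, and with the replicate number as a block 108 genes passed in brain and 12 in lung. In brain Socs3 was among them: it stood at 49.1, 120.2, 64.7 and 57.4 CPM untagged and 78.2, 163, 90.2 and 162 CPM tagged, higher in the tagged sample of 4 of 4 pairs though the groups overlapped. Its log2 difference was 0.90 (SE 0.15, adjusted p = 1.9e-05, edgeR) with the block and 0.61 (SE 0.34, adjusted p = 0.9999) without it. Tagged brain neutrophils numbered 14 to 129 per sample. Cluster 12, in which untagged brain neutrophils held 115 to 215 CPM of Socs3, made up 23.5%, 71.4%, 75.5% and 48.1% of the tagged and 6.75%, 71.25%, 51.8% and 24.6% of the untagged neutrophils in replicates 1 to 4. In that cluster alone Socs3 was at 199.6, 171, 115 and 215 CPM untagged and 346, 239.6, 112 and 377 CPM tagged, higher in 3 of 4 pairs, with a log2 difference of 0.58 (SE 0.31, adjusted p = 0.998, edgeR) without the block. The part of cluster makeup in the call was not tested. The other members did not pass with the block in any tissue.

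T cells (bone, brain and lung) and B cells (bone, liver and lung) had enough samples for the same test. Without the replicate block no gene passed in any of the 6 comparisons (0.0%; 71 to 209 genes at an unadjusted p under 0.05, and 0 by DESeq2), so no member was called. Cish was at 62.5, 30.9, 88.0 and 104 CPM in untagged and 78.8, 209, 166 and 113 CPM in tagged brain T cells. Each tagged value was above the untagged one of the same replicate number, though the groups overlapped. The log2 difference of 0.96 (SE 0.35) had an adjusted p of 0.9997 by edgeR without the block. In iia neutrophils 108 of 8172 genes passed (1.32%; 1.15% higher and 0.171% lower), with none of the 6 members among them. That result depends on which clusters count as neutrophils. With unnamed clusters 5 and 6 added, whose most frequent marker list was the neutrophil one (3 and 2 genes), 842 of 8618 genes passed and 5 members were called higher in tagged cells: Cish 1.43 (SE 0.25, adjusted p = 0.0027), Nfil3 1.05 (0.23, 0.0086), Stat3 0.58 (0.12, 0.0086), Bcl3 1.10 (0.31, 0.035) and Socs3 1.50 (0.45, 0.0437).

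Granulocyte precursors of bone, the cells that make neutrophils, were low in Socs3, Nfil3 and Bcl3. In the iia experiment Nfil3 fell in the tagged precursors. It stood at 21.2, 23.2, 16.9, 15.2, 22.5 and 25.1 CPM in the 6 untagged samples, on 29, 18, 19, 19, 42 and 72 UMIs, and at 5.22, 0, 13.9, 5.94, 9.63 and 11.4 CPM in the 6 tagged ones, on 10, 0, 12, 6, 210 and 42 UMIs. All tagged values lay below all untagged ones. The log2 difference was -1.57 (SE 0.22, adjusted p = 4.4e-06, edgeR), in a comparison in which 4683 of 8466 genes passed (55.3%; 28.5% higher and 26.8% lower). A share of 2 in the 3 members that passed the filter is near that background. Bcl3 was the other, at 4.39, 6.45, 4.45, 24.8, 11.3 and 24.4 CPM untagged and 7.82, 8.97, 4.64, 10.9, 9.76 and 14.9 tagged. Its groups overlapped, with untagged replicates 4 and 6 far above the rest, and the log2 difference of -0.81 (SE 0.34) was at the threshold (adjusted p = 0.0498) and was lost without either of those samples (-0.60, adjusted p = 0.16, and -0.43, adjusted p = 0.35). It was also lost without any 1 of tagged replicates 1 to 5 (edgeR, adjusted p from 0.056 to 0.106), without the filter on low counts (0.067) and by DESeq2 (0.19). Stat3 gave -0.15 (SE 0.09, adjusted p = 0.16) although its mean was 167 ± 14.9 (SD, n = 6) CPM tagged and 143 ± 9.81 (SD, n = 6) untagged.

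The scaling matters in this comparison, because without TMM the median gene moved from 0.03 to 0.39 and 4657 genes were called higher and 1062 lower, against 2415 and 2268 with it. Nfil3 was then at -1.21 (adjusted p = 0.00011), Bcl3 at -0.44 (adjusted p = 0.27) and Stat3 at 0.22 (adjusted p = 0.034, in the opposite direction). The sorts also held different precursors. Untagged cells were 81.2% cluster 1, led by Fcnb and histone genes. Tagged cells were 60.2% cluster 2 (29.5% to 63.7% by sample), led by Prtn3, Elane and Mpo. A further 28.9% of tagged cells were cluster 12 (9.09% to 30.4%), led by Cacnb2, Glis3 and St7. Clusters 1 and 12 have 3 and 5 precursor markers among their 100 leading genes and 1 each among their top 10. The same 10 neutrophil transcripts summed to a median of 271886 CPM in untagged and 52654 in tagged precursors, and the 12 precursor markers to 10732 and 32264. The median depth per sample was 6040 to 7383 UMIs per cell in untagged and 7350 to 15631 in tagged precursors. The part of depth and of these lists in the difference of Nfil3 was not tested. Within cluster 1 alone Nfil3 was at 29.3, 27.7, 24.2, 16.6, 19.2 and 27.4 CPM untagged and 10.9, 24.4, 11.0, 14.8 and 26.3 CPM tagged (5 samples of 13 to 75 cells), with overlap, and the log2 difference was -0.48 (SE 0.30, adjusted p = 0.40, edgeR, 443 of 5892 genes called). Within cluster 2 it was at 0 to 9.70 CPM untagged and 0 to 5.55 tagged and did not pass the filter. Within cluster 12 it was at 0, 91.1 and 42.5 CPM in 3 untagged and 10.1, 25.8, 8.45, 23.6 and 22.9 CPM in 5 tagged samples, with overlap, and did not pass the filter either. Nfil3 was thus tested in cluster 1 alone of the 3, and was not called there. These checks were added after the data had been seen.

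In the intracardiac bone precursors, which are 1 cluster, 6 of 9418 genes passed (0.0637%) and none was a member. Intracardiac cluster 14, led by Fcnb and Camp, met no name and is not among them, unlike the Fcnb-led cluster 1 of the iia experiment. Nfil3 stood at 18.5, 16.2 and 13.9 CPM in 3 untagged and 8.92, 17.8, 10.8 and 8.70 CPM in 4 tagged samples, and these overlapped through tagged replicate 2. The log2 difference was -0.74 (SE 0.23, adjusted p = 0.41). With the replicate block 1052 genes passed, Nfil3 among them (-0.67, SE 0.18, adjusted p = 0.021). Neutrophil transcripts summed to a median of 163190 CPM in untagged and 98589 in tagged precursors here too, and their part in the difference was not tested.

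**Figure D4:**
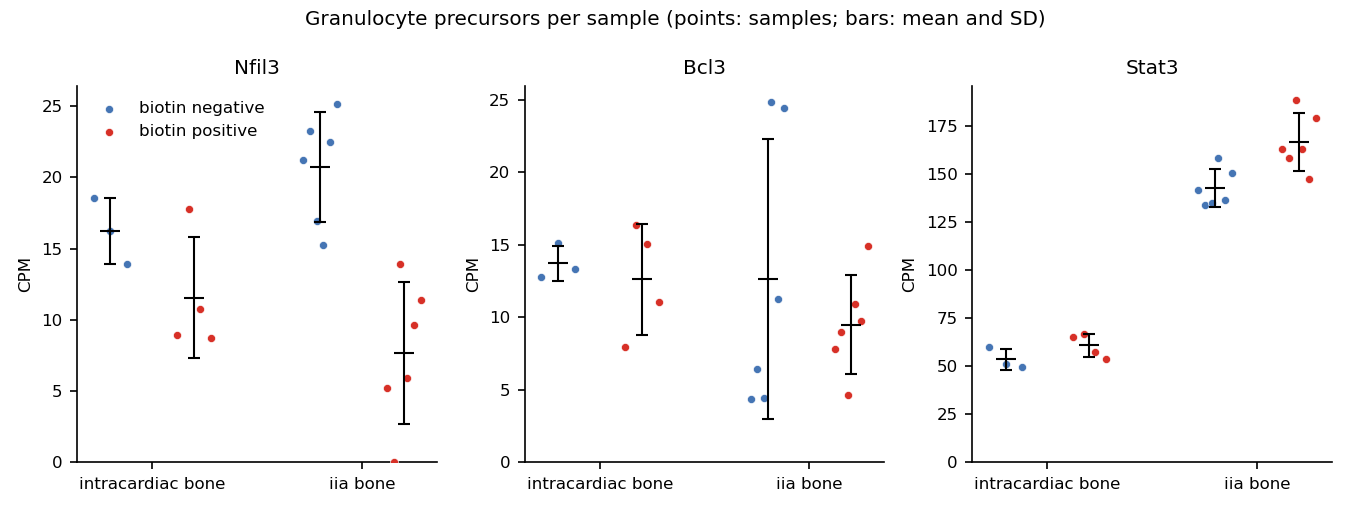
Levels of Nfil3, Bcl3 and Stat3 in CPM in granulocyte precursors of bone, for the intracardiac and the iia experiment by sort. Each point is 1 sample, and the bar is the mean with its SD. The tagged iia points of Nfil3 lie below all untagged ones, while those of Bcl3 overlap.

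The tissues themselves were compared in untagged cells, with brain, liver and lung set against the same 4 bone samples, so the 3 comparisons share their controls. In neutrophils Socs3, Nfil3, Bcl3 and Stat3 were higher in lung than in bone, and Socs3, Nfil3 and Stat3 were higher in liver. Socs3 stood at 31.2, 38.1, 38.1 and 60.3 CPM in bone and 49.1, 120.2, 64.7 and 57.4 CPM in brain. It was at 189, 267, 135 and 233 CPM in liver and at 111, 126, 92.8 and 272 CPM in lung. All liver and lung samples were above all bone samples, by 4.91-fold and 3.59-fold in the means. The log2 difference was 2.22 (SE 0.35, adjusted p = 0.0018, edgeR) in liver and 1.77 (SE 0.35, adjusted p = 0.0020) in lung.

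Nfil3 was at 43.2, 48.8, 41.1 and 43.0 CPM in bone and 73.5, 213, 176 and 83.4 CPM in brain, against 114, 194, 191 and 92.7 CPM for liver and 170.5, 220.0, 171 and 206 CPM for lung. Bone was the lowest and the tightest group, apart from each of the other 3. Its log2 difference was 2.05 (SE 0.31, adjusted p = 0.00064) in lung and 1.68 (SE 0.31, adjusted p = 0.0065) in liver, and 1.58 (SE 0.31) in brain with an adjusted p of 0.062 by edgeR. Bcl3 was at 31.6, 35.4, 34.4 and 26.2 CPM in bone and 143, 99.5, 53.9 and 60.7 in lung, again apart, with 1.43 (SE 0.31, adjusted p = 0.0033). In liver Bcl3 differed by 0.94 (SE 0.30, adjusted p = 0.082). Stat3 rose by 1.01 (SE 0.24, adjusted p = 0.0062) in lung and 0.91 (SE 0.24, adjusted p = 0.0436) in liver, from 104 ± 8.11 (SD, n = 4) CPM in bone. Cish was the 1 member that fell in lung, by 1.26 on the log2 scale (SE 0.45, adjusted p = 0.0445), from 6.00, 4.30, 7.55 and 4.75 to 4.23, 2.30, 0 and 2.18 CPM. Cish is a low gene, and with unnamed clusters 8, 14, 19 and 20 added its difference turned to 0.32. Their most frequent marker list, alone or tied, was the neutrophil one, with 1 gene in cluster 19. Cluster 14 is led by Fcnb and Camp, and cluster 19 held 98.4 CPM of Cish in untagged lung replicate 4. The calls of Cish and of Stat3 in liver lay close to the threshold. Cish lost its call without any 1 of bone replicates 1, 3 and 4, brain replicates 1, 3 and 4, liver replicates 3 and 4 and lung replicates 2, 3 and 4 (edgeR, adjusted p from 0.052 to 0.126), and without TMM (-1.16, adjusted p = 0.064). Stat3 in liver lost it without any 1 of the 4 bone replicates, liver replicates 2 and 3 and lung replicates 1, 2 and 4 (adjusted p from 0.053 to 0.203). Its direction was the same in each of these. In the other sense, Nfil3 in brain passed without brain replicate 1 (1.83, adjusted p = 0.013) or brain replicate 4 (1.74, adjusted p = 0.030) and by DESeq2 (1.60, adjusted p = 0.00011), and Bcl3 in liver without brain replicate 2 (0.94, adjusted p = 0.037) and by DESeq2 (0.94, adjusted p = 0.046).

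All 6 members passed the filter. In lung 5 of them passed the test, against 2394 of 7705 genes (31.1%; 15.1% higher and 16.0% lower), and in liver 3, against 334 genes (4.33%; 3.49% higher). In brain 3 genes passed (0.0389%; 499 at an unadjusted p under 0.05, 76 by DESeq2), none of them a member. With the replicate block, for which same-numbered samples of these tissues correlated, 3644, 2050 and 103 genes passed in lung, liver and brain. Bcl3 in liver (adjusted p = 0.0135) and Nfil3 in brain (1.48, SE 0.21, adjusted p = 0.0015) then passed as well.

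The neutrophils of these tissues were not the same clusters. Cluster 12, led by Cstdc4, Wfdc17 and G0s2, held 89.8% of untagged neutrophils in lung (81.5% to 92.6% by sample), 69.4% in liver (37.2% to 87.3%), 37.2% in brain (6.75% to 71.2%; 23.9% pooled without replicate 2) and 5.75% in bone (3.05% to 10.1%), whereas clusters 9, 10 and 11, led by Ltf, Camp and Ngp, by Stfa3 and Cstdc5, and by Retnlg and Prok2, held the rest. The 22 immediate early genes summed to a median of 3594 CPM for bone, 7380 for brain, 15894 for liver and 13745 for lung. The median depth per sample was 6769 to 8529.5 UMIs per cell in bone and 3805 to 4176 in lung, and the part of clusters, list and depth in these differences was not tested. In cluster 12 alone Socs3 stood at 149.9, 149.6, 211 and 249 CPM in bone, 594, 307, 165 and 463 in liver and 142, 134, 108 and 316 in lung. Bone and lung now ran together, and the log2 difference in lung was -0.02 (SE 0.34) and in liver 1.06 (SE 0.34, adjusted p = 0.30, edgeR). Nfil3 in cluster 12 was 151 ± 34.5 (SD, n = 4) CPM in bone and 221 ± 19.5 (SD, n = 4) in lung. The log2 difference was 0.59 (SE 0.21, adjusted p = 0.33, edgeR). No member passed in cluster 12, where 6 of 4132 genes passed in lung, 11 in liver and 0 in brain. The immediate early genes summed there to a median of 11366 CPM in bone, 25195 in liver and 15124 in lung.

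**Figure D5:**
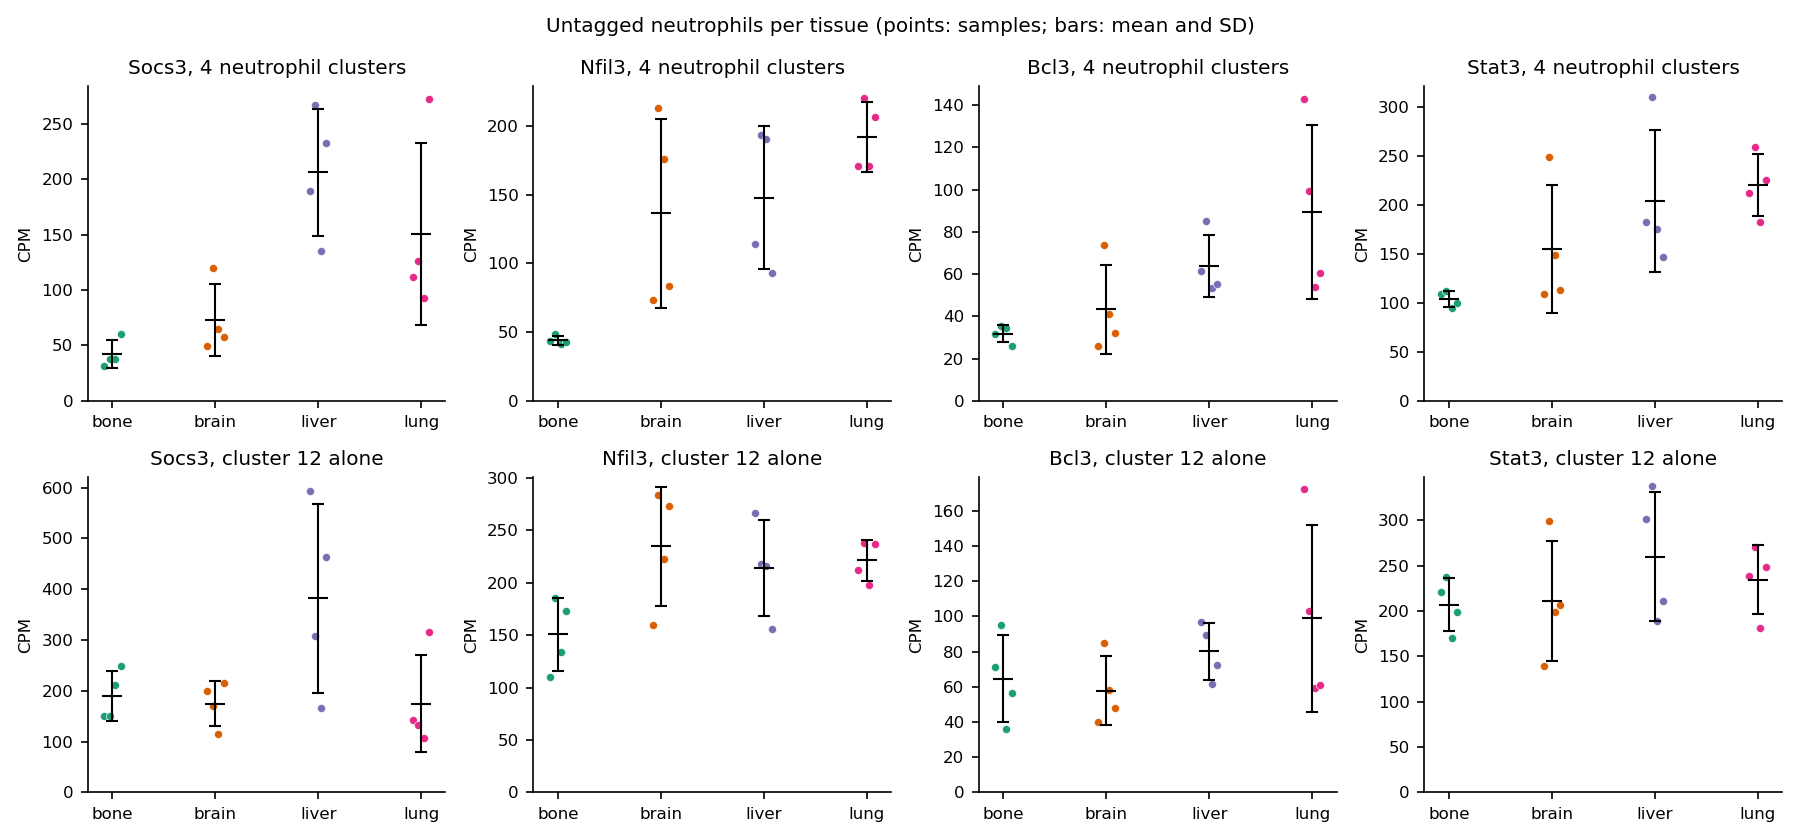
Levels of Socs3, Nfil3, Bcl3 and Stat3 in CPM in untagged neutrophils by tissue, with the 4 neutrophil clusters together in the upper row and cluster 12 alone in the lower row. Each point is 1 sample, and the bar is the mean with its SD. Bone is lowest in each upper panel, and in cluster 12 the bone and lung values of Socs3 overlap.

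In untagged monocytes the same tissue contrast is described without a test, because these cells make up most of the untagged phagocytes whose values chose the genes. Socs3 stood at 93.2, 128, 110.3 and 89.0 CPM in bone and 236, 234, 167 and 195 in lung, a log2 difference of 1.12 (SE 0.22). Nfil3 differed between lung and bone by 1.38 (SE 0.32), Bcl3 by 1.01 (SE 0.30) and Stat3 by 0.24 (SE 0.16). In liver the differences from bone were 1.02 (SE 0.23) for Socs3 and 0.83 (SE 0.32) for Nfil3, and in brain 0.21 (SE 0.22) and 1.18 (SE 0.32). The monocyte clusters differed between these tissues. Cluster 1 held 10.0% to 66.0% of untagged phagocytes by sample in bone and 0.235% to 2.43% in lung, and cluster 18 held 23.3% to 71.5% and 74.6% to 84.6%. In cluster 18 alone Socs3 was at 259.7, 131, 116 and 185 CPM in bone and 243, 216, 154 and 191 in lung, with overlap, and the log2 difference was 0.31.

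Other genes of the pathway are given beside all genes tested. In untagged lung neutrophils, where 15.1% of all genes were higher and 16.0% lower with a median of -0.06, 9 of 14 tested STAT3 target genes were higher than in bone and 1 was lower, with a median log2 difference of 1.55. Pim1, a survival kinase, rose by 2.74 (SE 0.31), Junb by 2.59 (SE 0.33) and Fos by 2.55 (SE 0.36), whereas Lcn2, a granule protein of maturing neutrophils, fell by 1.46 (SE 0.27). Of 12 NF-kB genes, the partners and brakes of Bcl3, 8 were higher and none lower (median 1.80). Among them were Nfkbia at 2.16 (SE 0.24), Nfkbiz at 2.61 (SE 0.34) and Tnfaip3 at 3.55 (SE 0.65), which all restrain NF-kB or form its nuclear IkB proteins. Of 13 cytokine receptors 8 were higher (median 0.88), led by Il10ra at 2.74 (SE 0.41), Csf3r at 1.79 (SE 0.33) and Ifngr1 at 1.23 (SE 0.25). Of 4 ligands tested 3 were higher, Osm at 2.15 (SE 0.34), Il15 at 1.53 (SE 0.28) and Csf3 at 3.03 (SE 1.09). Of 5 clock and PAR genes Per1, Per2 and Clock were higher (2.55, 3.13 and 0.88), of 10 JAK and STAT genes Jak2 (0.97) and Jak1 (0.47), and of 11 other feedback regulators the phosphatase gene Ptpn1 (0.85). The shares of these last groups, 2 of 10 and 1 of 11, are near or below that of all genes. The immediate early list, which shares Junb and Fos with the STAT3 targets, was higher in 15 of 21 genes (median 1.89; Atf3 at 3.76), and 6 of the 10 neutrophil transcripts were lower, among them Ltf at -3.69 and Ngp at -2.93. These calls are from edgeR at an adjusted p under 0.05.

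In untagged liver neutrophils (3.49% of all genes higher and 0.844% lower, median -0.03) 7 of 14 STAT3 targets were higher than in bone, with Junb at 2.63 (SE 0.33), Pim1 at 2.27 (SE 0.31) and Fos at 2.51 (SE 0.36). Of 12 NF-kB genes 4 were higher, among them Nfkbia at 2.12 and Nfkbiz at 2.34. Osm, the ligand that signals through gp130 and Stat3, rose by 2.97 (SE 0.35), and of 13 receptors Il10ra, Csf3r and Il6ra were higher (1.90, 1.39 and 0.99). Per1 and Per2 were higher (2.11 and 2.43), no JAK or STAT gene of 10 and no other feedback regulator of 11 passed, and 13 of 21 immediate early genes were higher (median 2.08). In lung monocytes (0.36% of all genes higher and 0.286% lower, median 0.01) 3 of 15 STAT3 targets were higher, namely Junb at 1.37, Mcl1 at 0.87 and Pim1 at 1.34, as were Osm at 1.64 and 4 of 22 immediate early genes, and 0 of 12 NF-kB genes. In the tagged iia precursors, where 55.3% of all genes passed, 7 of 13 STAT3 targets were lower and 2 higher, 5 of 10 NF-kB genes lower, 7 of 12 receptors lower and 2 higher, and 9 of 9 neutrophil transcripts lower. Of 10 JAK and STAT genes 4 were lower and 1 higher there, with Jak1 at -0.43 among the lower ones. Of 13 other feedback regulators 5 were lower and 2 higher. In the same precursors the immediate early genes with the smallest adjusted p, Ier2, Zfp36 and Klf6, were lower, at -1.57, -1.63 and -1.68. The count over that whole list is not given here. The lists were chosen with earlier results of these data known, so their counts are descriptions.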

How the data were processed

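Per the labels' protocols, cells of each sample were multiplexed with CellPlex and sequenced from the 3′ end (32 intracardiac samples), or with TotalSeqC and sequenced from the 5′ end (12 iia samples in 1 library). What the authors deposited are whole UMI counts for every gene in each cell. The submitters' processing notes name Cell Ranger, Seurat and mm10, and the file headers name cellranger 6.1.2 and 7.1.0. Barcodes with at least 500 UMIs, 200 genes and at most 15% mitochondrial counts were kept. Iia cells were assigned to samples by the authors' barcode list, whose hashtag names differ in prefix from those in the feature file and were matched by number, where the highest hashtag had at least 10 counts and 3 times the next. Cells were clustered in each experiment with scanpy 1.11.5 and igraph 0.11.9 (2000 variable genes, 30 components, 15 neighbours, Leiden resolution 1.0) and named from 27 marker lists of 346 genes. No doublets were removed in the values given; an alternative left out the 5% highest Scrublet scores.

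UMIs were summed per sample and class (at least 10 cells) and tested with edgeR 4.0.16 (TMM, filterByExpr, quasi-likelihood, R 4.3.3), with p-values adjusted by Benjamini-Hochberg over all genes tested, an FDR of 0.05 and at least 3 samples per arm. The scripts were tested on simulated counts. Alternatives were DESeq2 1.42.0, no TMM, no filter, at least 30 cells, 1 cluster alone, the replicate block, and each sample left out. The 6 genes and all lists were chosen with earlier results of these data known. A test planned for the 6 genes in untagged monocytes is not used, since the choice of the genes rests on those values. All 6 were named in every comparison, the up to 3 genes of a list with the smallest adjusted p under 0.05, and for each member the 5 most correlated genes that reached 20 CPM.

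Same-numbered samples carry the same number in the titles. The correlation of their deviations from the group means was 0.273 to 0.621 in intracardiac neutrophils, 0.384 to 0.498 in precursors, 0.184 to 0.561 in untagged neutrophils against bone and 0.214 to 0.553 in untagged monocytes, above 0.1 in each pair. It was also above 0.1 in T cells of bone and brain and in B cells. The main tests of all these classes left the numbers out, and the block was an alternative. T cells of lung (0.0829 in 1 pair) and the iia classes did not reach it. A few genes that met the naming rules are not reported here.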

Additional observations from a re-analysis of the deposited data

Results flagged for a closer look

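Of 132 groups of 4 to 10 samples tested for a sample far from the others (Dixon's criterion), 4 held one, while chance gives about 1 in 20. Tagged lung phagocytes of replicate 4 held 104.4 CPM of Socs3 against 28.9 to 34.2 in the other 3 samples, and the log2 difference of Socs3 in lung was -3.04 without that sample. Tagged iia phagocytes of replicate 4 held 14.1 CPM of Nfil3 against 63.2 to 86.0 in the other 5. Tagged bone precursors of replicate 2 held 17.0 CPM of Socs3 against 1.88 to 3.44 in the other 3. Untagged bone phagocytes of replicate 4 held 0.0 CPM of Cish against 3.45 to 3.78 in the other 3, all of them low counts.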

How the results depend on the processing

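Counts of members called in the sort and tissue comparisons changed by more than 1.5 times, or to or from 0, as follows. With DESeq2 the count went to 1 in iia precursors and 1 in untagged brain neutrophils. Without the filter it was 1 in iia precursors and untagged brain neutrophils, and with at least 30 cells it was 1 in iia precursors. In 1 cluster alone (iia precursors, clusters 1, 2 and 12 chosen after seeing the data, and the largest cluster of lung and liver neutrophils) it was 0. With the unnamed clusters, also added after seeing the data, it was 5 in iia neutrophils. With the replicate block it was 1 in bone precursors, tagged brain neutrophils and untagged brain neutrophils. Smaller changes were from 5 to 4 in untagged lung neutrophils without TMM, without the filter, without the 5% highest Scrublet scores or with the unnamed clusters, and from 3 to 4 in untagged liver neutrophils with DESeq2 or the block. Same-numbered iia samples correlated at 0.0712 to 0.253 in neutrophils and -0.0404 to 0.210 in precursors, each matching its own number best in 6 of 6 and 2 of 6 pairs; the block there called 256 genes in neutrophils and 4631 in precursors. The block also moved Bcl3 in untagged liver neutrophils past the threshold, and changed no other member's call.

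The log2 difference of tagged from untagged phagocytes became, in monocytes alone, 0.24 for Nfil3 and 0.60 for Socs3 in bone, -0.15 for Bcl3, -0.16 for Nfil3 and -0.25 for Socs3 in brain, 0.068 for Socs3 in iia bone, -0.42 for Nfil3 and -0.22 for Socs3 in liver, and -0.0081 for Bcl3, 0.019 for Nfil3 and 0.24 for Socs3 in lung. Without monocytes it was -0.81 for Nfil3 and -0.40 for Socs3 in brain, -0.89, -1.70 and -0.62 for Bcl3, Nfil3 and Socs3 in iia bone, and -1.18 and -0.96 for Nfil3 and Socs3 in liver. Without TMM Nfil3 in lung was -0.73. Socs3 in lung neutrophils was -0.020 in the largest cluster and Cish there was 0.32 with the unnamed clusters. In untagged monocytes the difference from bone in the largest cluster was 0.31 for Socs3, 0.68 for Nfil3 and 0.34 for Bcl3 in lung, 0.59 for Socs3 in liver, and -0.34, 0.59 and -0.71 in brain. The causes of these changes were not tested.

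Leaving out 1 sample gave 1 to 2 members in iia precursors, 0 to 1, 2 to 4 and 4 to 5 in untagged neutrophils of brain, liver and lung, and 0 in the others. The share of all genes called in each of these fits is not given here, so the counts do not set the members against other genes. Over the same left-out samples the phagocyte differences ran from -3.04 to -2.25 for Socs3, -1.17 to -0.99 for Nfil3 and -2.74 to -2.16 for Bcl3 in lung, and from 0.64 to 1.43 for Socs3, -2.71 to -1.99 for Nfil3 and -1.93 to -1.17 for Bcl3 in brain. In bone they ran from -0.07 to 0.15 for Socs3, -0.45 to -0.12 for Nfil3 and 0.05 to 0.22 for Bcl3, in liver from -1.84 to -1.26, -2.04 to -1.50 and -0.95 to -0.67, and in iia bone from 0.87 to 1.24, -0.42 to -0.19 and -0.27 to 0.14. Of the remaining alternatives 252 kept the count of members or the described phagocyte or monocyte difference within its bounds. Few cells or UMIs limit precision in some groups: tagged brain neutrophils had 14 to 129 cells, and Cish and Socs1 rest on few UMIs in myeloid cells.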
